A study of Mus musculus with 9 samples.

Results

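The genes described here are 6 transcription factor genes of the primitive streak and early mesoderm: T, Eomes, Tbx6, Msgn1, Mesp1 and Mesp2. They were taken by symbol from a table of 23453 gene symbols, and all 6 were in it. The table covers 9 bulk RNA-seq libraries of mouse epiblast-like cells (EpiLCs) in 3 states, with 3 libraries per state. EpiLCs were made from naive embryonic stem cells over 48 h in N2B27 that held FGF2, Activin A and the serum replacement KSR at 1%. From there, aEpiLCs were kept for a further 24 h without Activin A, FGF2 or a Wnt agonist, and pEpiLCs for the same 24 h with 20 ng/ml Activin A and 3 µM CHIR99021, a GSK3 inhibitor that raises Wnt/β-catenin signalling, with no FGF2 listed for either medium. The labels call the aEpiLC medium basal N2B27, whereas the methods give 1% KSR in it too. No genetic change is given in the labels of any of the 9 libraries and no cell line is named for them. The paper calls the cells of its bulk RNA-seq comparison of aEpiLC and pEpiLC wild-type. Nothing says that the replicates were separate cultures, so the p-values below measure only the spread between these libraries, which may be technical.

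T, Eomes and Tbx6 encode T-box factors, which bind DNA through a shared T-box domain. T (Brachyury) and Eomes are switched on in the primitive streak downstream of Wnt and Nodal/Activin signals, where T is needed for posterior mesoderm and Eomes for anterior mesoderm and definitive endoderm. Msgn1, Mesp1 and Mesp2 encode basic helix-loop-helix factors: Tbx6 and Msgn1 act in the presomitic mesoderm, Mesp1 marks the earliest cardiac and anterior mesoderm, and Mesp2 sets segment boundaries as somites form.

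On GRCm38, with GENCODE vM21 as the annotation, T lies at chr17:8434423-8442496 on the plus strand, Eomes at chr9:118478212-118486132 (plus), Tbx6 at chr7:126781483-126785560 (plus) and Msgn1 at chr12:11208360-11208972 (minus). Mesp1, at chr7:79792241-79793788 (minus), and Mesp2, at chr7:79810727-79813439 (plus), are neighbours with 16938 bp between them and point away from each other. The bases before the RefSeq starts of T, Eomes and Msgn1 (GRCm38.p6) are shown because T and Eomes are the genes that changed in every pEpiLC library, and Msgn1 was at 0 counts in all libraries but 2. Each runs 5′ to 3′ on the gene's own strand, and capitals mark matches to the TCF/LEF core CTTTGA, the sequence bound by the DNA-binding partners of β-catenin, on either strand. The T stretch is chr17:8434173-8434422 and the Eomes stretch chr9:118477939-118478188. The Msgn1 stretch is chr12:11208973-11209198, ending where the GENCODE gene begins. It leaves out the last 24 bases before the RefSeq start, from which the positions below are counted.
T: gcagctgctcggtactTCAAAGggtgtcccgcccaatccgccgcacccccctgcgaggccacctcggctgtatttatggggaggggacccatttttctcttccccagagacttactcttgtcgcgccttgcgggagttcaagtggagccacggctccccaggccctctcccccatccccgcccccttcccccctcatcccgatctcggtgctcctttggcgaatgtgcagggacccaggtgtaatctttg
Eomes: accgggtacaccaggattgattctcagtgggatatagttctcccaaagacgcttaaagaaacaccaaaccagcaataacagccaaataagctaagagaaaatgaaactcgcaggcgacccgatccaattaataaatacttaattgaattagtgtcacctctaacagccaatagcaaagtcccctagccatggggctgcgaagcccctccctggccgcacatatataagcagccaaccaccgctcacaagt
Msgn1: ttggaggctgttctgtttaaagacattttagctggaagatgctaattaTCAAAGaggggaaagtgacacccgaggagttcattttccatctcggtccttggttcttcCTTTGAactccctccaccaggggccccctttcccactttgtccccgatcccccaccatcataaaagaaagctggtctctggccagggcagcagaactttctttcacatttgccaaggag

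In the 250 bases before the RefSeq start, 3 of the 6 genes held the TCF/LEF core, against 13.8% of 32851 mouse promoters searched in the same way. T had 1 match, 234 to 229 bases before the start. Msgn1 had 2, at 202 to 197 and at 143 to 138 bases, and Mesp1 had 2, at 72 to 67 and at 31 to 26 bases. Both Mesp1 matches lay inside the GENCODE gene, which starts 198 bases further upstream than the RefSeq gene. Eomes, Tbx6 and Mesp2 had none. The T-box core GGTGTGA was in none of the 6 windows and in 3.33% of all promoters. The window was then extended to 50 bases after the start, once a match there in Mesp1 had been seen. In these 300 bases Mesp1 held the T-box core on the opposite strand, at bases 6 to 12 after the start, and 3.98% of all promoters held it. The number of genes with the TCF/LEF core stayed at 3, against 16.0% of all promoters. These are matches of letters and no binding was measured here.

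Total expected counts ran from 20560564 to 23417917 per library, so that 3 counts, taken here as the limit below which a gene was not detectable, stood at 0.130 to 0.143 CPM (library counts scaled to a common total after TMM normalization). pEpiLC replicate 1 stood apart from the other pEpiLC libraries: of 15797 genes, 128 (0.81%) were more than 4-fold above both other replicates in it and 85 (0.538%) more than 4-fold below, while no other library had over 11 genes above or over 18 below its own group in this way. Fold changes of the 6 genes and of the list genes in pEpiLC, and correlations over the libraries, are therefore set beside the value, count ratio or call without this library. All 8 epiblast markers were above the limit in every library, with a summed level of 5658 to 5920 CPM in EpiLC, 5507 to 5684 in aEpiLC and 2481, 4090 and 3770 in pEpiLC replicates 1, 2 and 3. Dnmt3b weighed most in that sum, with means of 2697, 2515 and 1244 CPM in EpiLC, aEpiLC and pEpiLC. Otx2, Pou3f1, Utf1, Epcam and Cdh1 also had their lowest mean in pEpiLC. Pou5f1 was at 1128, 934 and 954 CPM in the same order, and Fgf5 rose, at 85.3, 115 and 168 CPM. Of 6 extraembryonic endoderm markers in the table, 4 were above the limit in each pEpiLC library and Hnf4a was at 0 in all 3, with a summed level of 10.2, 4.91 and 4.83 CPM there and 6.06 to 7.38 elsewhere. Apob alone was at 7.01 CPM in pEpiLC replicate 1. The 4 trophoblast markers in the table summed to 1.06 to 3.34 CPM over the 9 libraries, with 3 of 4 above the limit in each, the 6 feeder fibroblast markers to 13.6 to 24.6 CPM, with 5 or 6 above it, and the 6 naive stem cell markers to 16.9 to 38.5 CPM, with 5 or 6 above it. Their part in the results was not tested.

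In pEpiLC against aEpiLC, which asks what Activin A and CHIR99021 changed over the same 24 h, T and Eomes rose in every library while the 4 other genes were high in pEpiLC replicate 1 alone. T was at 1087, 204 and 219 CPM in pEpiLC replicates 1, 2 and 3 and at 1.22, 0.855 and 0.598 CPM in aEpiLC. In EpiLC, T was at 0.466, 0 and 0.439 CPM, from 10, 0 and 10 counts. All 3 pEpiLC libraries were therefore far above all 6 others, and replicate 1 was far above its own group. The mean level of T was 504 ± 506 CPM in pEpiLC against 0.891 ± 0.313 in aEpiLC (SD, n = 3), a fitted log2 fold change of 9.14 with a standard error of 0.96 (adjusted p = 0.00122, edgeR quasi-likelihood test with Benjamini-Hochberg adjustment). Genes were called at an adjusted p under 0.05 together with a log2 fold change of at least 1 in either direction. Without pEpiLC replicate 1 the log2 fold change was 7.89 (adjusted p = 1.77e-11, same edgeR test).

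Eomes was at 381, 239 and 216 CPM in the pEpiLC libraries, at 5.35, 4.54 and 4.69 CPM in aEpiLC and at 3.22, 2.17 and 3.25 CPM in EpiLC. The pEpiLC libraries lay above all others and closer to each other than for T, and the aEpiLC libraries lay above the EpiLC libraries. The mean level was 279 ± 89.2 CPM in pEpiLC, 4.86 ± 0.429 in aEpiLC and 2.88 ± 0.616 in EpiLC (SD, n = 3). The fitted log2 fold change against aEpiLC was 5.84 with a standard error of 0.26 (edgeR adjusted p = 3.70e-05), and 5.55 without pEpiLC replicate 1 (edgeR adjusted p = 1.77e-11). The exact two-sided permutation test over the libraries gave p = 0.1 for T and for Eomes, the smallest value that 3 libraries against 3 allow. In bulk libraries, more cells with a transcript and more of the transcript per cell cannot be told apart.

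**Figure D1:**
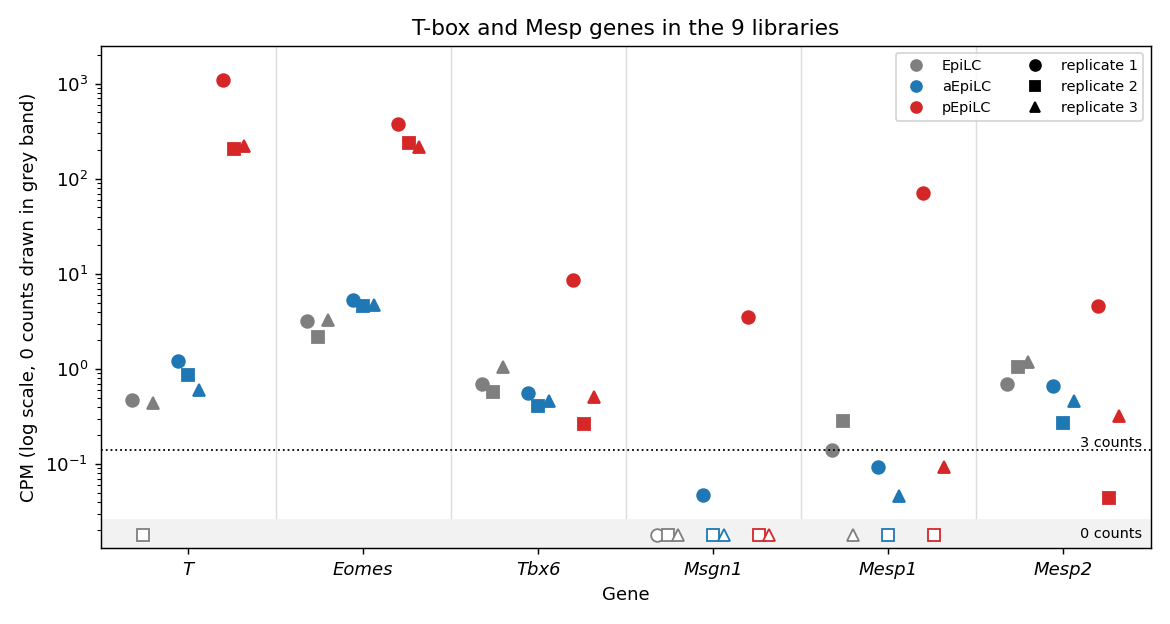
Level of each of the 6 genes in CPM on a log axis, by state (colour) and replicate (marker shape), with open markers in the grey band for 0 counts and a dotted line near 3 counts. The 3 pEpiLC libraries lie above all others for T and Eomes, and for the other 4 genes only pEpiLC replicate 1 does.

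Tbx6, which directs mesoderm cells to a paraxial fate, was at 8.58, 0.261 and 0.506 CPM in pEpiLC replicates 1, 2 and 3, from 180, 6 and 11 counts. It was at 0.563, 0.405 and 0.460 CPM in aEpiLC and at 0.700, 0.566 and 1.05 CPM in EpiLC. Replicate 1 was above all others, while replicate 2 lay below the aEpiLC libraries, replicate 3 among them, and both below all EpiLC libraries. The log2 fold change against aEpiLC was 2.69 with a standard error of 1.22 (edgeR adjusted p = 0.179) and turned to -0.31 without pEpiLC replicate 1 (edgeR adjusted p = 0.727). The call was not made in either case.

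Msgn1, a regulator of presomitic mesoderm maturation, had 74 counts in pEpiLC replicate 1 (3.53 CPM), 1 count in aEpiLC replicate 1 and 0 in the other 7 libraries. Mesp1 had 1491 counts in pEpiLC replicate 1 (71.1 CPM), against 0 and 2 in pEpiLC replicates 2 and 3. Its counts were 2, 0 and 1 in aEpiLC and 3, 6 and 0 in EpiLC. Neither gene was thus detectable in aEpiLC or in the other 2 pEpiLC libraries at this depth, and both were high in 1 library. Mesp2 was at 4.62, 0.0435 and 0.322 CPM in pEpiLC (97, 1 and 7 counts), at 0.657, 0.270 and 0.460 CPM in aEpiLC and at 0.700, 1.04 and 1.19 CPM in EpiLC. Again pEpiLC replicate 1 was the highest of the 9, and the other pEpiLC libraries were below every EpiLC library.

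The filter on low counts removed Msgn1, Mesp1 and Mesp2 from the pEpiLC against aEpiLC test. With no filter, Mesp1 had a log2 fold change of 8.83 (edgeR adjusted p = 0.0817, unadjusted p = 0.0100) and Mesp2 of 1.82 (edgeR adjusted p = 0.384). Msgn1 had 74 counts over the 3 pEpiLC libraries against 1 in aEpiLC, a ratio of 73.5 with a 95% counting interval of 12.8 to 2941 (edgeR adjusted p = 0.147, unadjusted p = 0.0259). These values rest on pEpiLC replicate 1. In replicates 2 and 3 against aEpiLC, the count ratio was 0.972 for Mesp1 (95% counting interval 0.0812 to 8.49) and 0.389 for Mesp2 (0.154 to 0.868), and Msgn1 had 0 counts. Of the 3 genes that passed the filter, T and Eomes were called, both higher. Over all 15198 genes tested, 2.55% were called higher and 4.74% lower. Without pEpiLC replicate 1, T and Eomes were again the 2 called of 3, with 2.51% of all genes called higher and 4.9% lower. The libraries of the 2 states did not overlap for T and Eomes, and for 38.8% of all genes tested.

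pEpiLC against EpiLC compares the treated cells with the cells they came from, and uses the same pEpiLC libraries. The states also differ in FGF2, listed for EpiLC only, and in 24 h of culture. T had a log2 fold change of 10.69 with a standard error of 1.12 (edgeR adjusted p = 0.000488) and Eomes of 6.61 with a standard error of 0.29 (edgeR adjusted p = 1.95e-05). Without pEpiLC replicate 1 these were 9.44 and 6.32, and both were still called. Tbx6 had 2.01 (edgeR adjusted p = 0.194), which turned to -0.99 without replicate 1 (edgeR adjusted p = 0.118). Mesp2 had 0.78 (edgeR adjusted p = 0.604), whereas without replicate 1 it was -2.38 and called lower (edgeR adjusted p = 0.00516). Mesp1 and Msgn1 did not pass the filter. With no filter Mesp1 was called at 7.39 (edgeR adjusted p = 0.0477). Msgn1, at 0 in all EpiLC libraries, was at least 8.31-fold higher over the 3 pEpiLC libraries with 3 counts per library as the floor, and was not called (edgeR adjusted p = 0.101). Both values rest on pEpiLC replicate 1: in replicates 2 and 3 against EpiLC the count ratio of Mesp1 was 0.325 (0.0341 to 1.57), and Msgn1 was at 0 in both states. Of 4 genes tested, 2 were called higher, beside 7.71% of all 15288 genes called higher and 8.13% called lower. Without replicate 1 the counts were 2 higher and 1 lower of 4, beside 7.05% and 8.33%. T and Eomes did not overlap between these states, nor did 58.7% of all genes.

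aEpiLC against EpiLC follows the 24 h in which both Activin A and FGF2 were left out. T had a log2 fold change of 1.53 with a standard error of 0.61 and was not called (edgeR adjusted p = 0.0531). Eomes passed the adjusted p (0.00681, edgeR) with a log2 fold change of 0.75, under the limit of 1. Tbx6 had -0.70 (edgeR adjusted p = 0.162). Mesp2 was the 1 gene of the 4 tested that was called, and it was lower in aEpiLC, with a log2 fold change of -1.07 and a standard error of 0.41 (edgeR adjusted p = 0.0438). That call rests on 14, 6 and 10 counts against 15, 22 and 27. It was lost without aEpiLC replicate 2 or 3 or without EpiLC replicate 2 or 3, where the log2 fold change was -0.80, -1.07, -1.03 and -0.91. Of all 15301 genes, 7.25% were called higher and 5.24% lower. All 4 tested genes were without overlap between these states, T and Eomes higher and Tbx6 and Mesp2 lower in aEpiLC, beside 56.3% of all genes. For Tbx6 the closest libraries, aEpiLC replicate 1 and EpiLC replicate 2, both had 12 counts and differed only through scaling. For Mesp2 the closest had 14 and 15 counts.

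**Figure D2:**
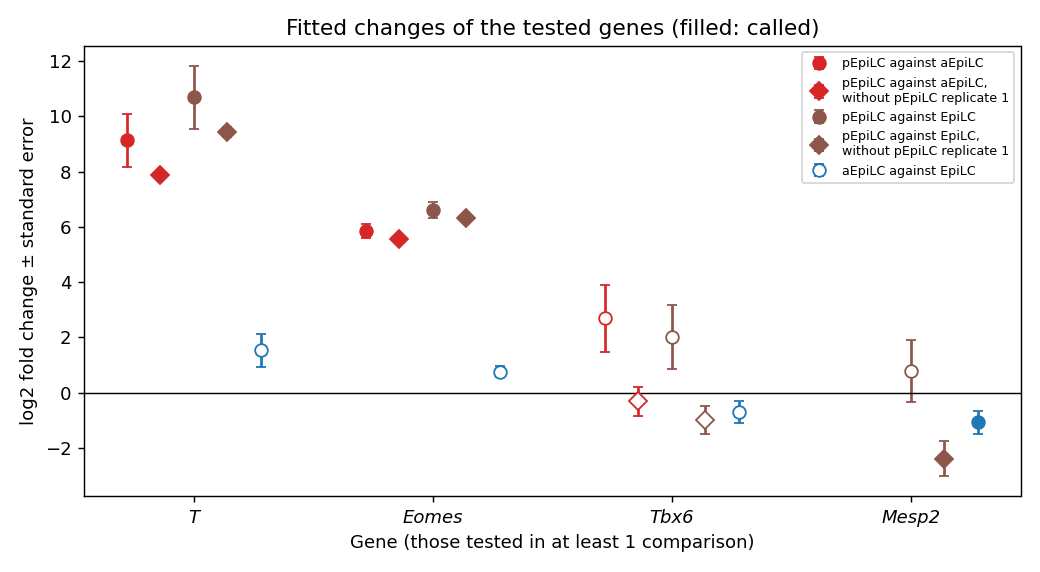
Fitted log2 fold change with its standard error for the 4 genes tested in at least 1 comparison, with filled markers where the gene was called and diamonds for fits without pEpiLC replicate 1. T and Eomes lie far above 0 with and without that library, while Tbx6 and Mesp2 change sign.

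Within pEpiLC, the 6 genes differed in how far replicate 1 stood from the other replicates. Its level over that of replicates 2 and 3 pooled was 1.67 for Eomes (95% exact interval 1.62 to 1.72) and 5.14 for T (5.02 to 5.26). The ratio was 22.6 for Tbx6 (13.7 to 39.6), 25.9 for Mesp2 (12.6 to 61.6) and 1591 for Mesp1 (440 to 13147). Msgn1 was at least 25.6-fold higher in replicate 1, taking 3 counts per library as the floor. These intervals cover counting error only. The Mesp1 ratio divides by only 2 counts, and with the same floor as for Msgn1 it was 515. Eomes was thus lowest in this order and Mesp1 highest of the genes with a ratio, with Tbx6 and Mesp2 not separated by their intervals. More than 4-fold above both other replicates were 5 of the 6 genes, all but Eomes. This held for 0.81% of the 15797 genes that passed the filter over all 9 libraries, which Msgn1 and Mesp1 did not pass. Replicate 1 was the highest of the 9 libraries for all 6. It was also the highest for 15 of 22 posterior and paraxial mesoderm genes, 6 of 15 anterior, cardiac and blood mesoderm genes and 3 of 12 other T-box genes. The share of all genes highest in it was not counted. Tbx6, Msgn1, Mesp1 and Mesp2 together had 1842 counts in replicate 1 and 7 and 20 in replicates 2 and 3, against 29, 15 and 21 in aEpiLC and 33, 40 and 51 in EpiLC.

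Levels can be compared between genes only per length, here as CPM per kb of exon. In pEpiLC replicate 1 the order was T at 470, Eomes at 91.6, Mesp1 at 55.7, Msgn1 at 5.75, Tbx6 at 4.76 and Mesp2 at 2.38. In replicates 2 and 3, T was at 88.2 and 94.8, Eomes at 57.6 and 51.9, and the other 4 genes at 0.280 or less. Only the order of T above Eomes was therefore shared by the 3 libraries among the genes that were well detected. T over Eomes per length was 5.13, 1.53 and 1.83 in pEpiLC, 0.409, 0.338 and 0.229 in aEpiLC, and 0.260, 0 and 0.243 in EpiLC. Eomes was thus the higher of the pair in all 6 libraries without CHIR99021, and T in all 3 with it. T and Eomes made up 94.4%, 99.9% and 99.8% of the summed counts of the 6 genes in the pEpiLC libraries. Mesp1 was 23.4 times Mesp2, its neighbour in the genome, per length in pEpiLC replicate 1.

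**Figure D3:**
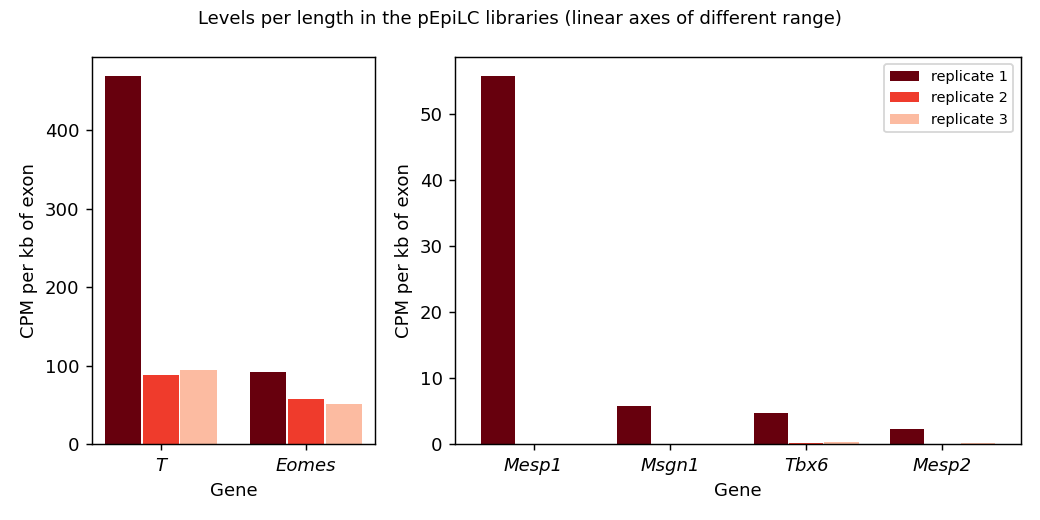
Level per kb of exon in the 3 pEpiLC libraries on linear axes, whose range differs between the left panel (T and Eomes) and the right (Mesp1, Msgn1, Tbx6 and Mesp2). Bars are single libraries, and in the right panel replicates 2 and 3 are at 0.280 or less.

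Over the 9 libraries the log2 CPM of T and Eomes had a Pearson correlation of 0.991. That of Mesp1 and Msgn1 was 0.971, of Tbx6 and Msgn1 0.935, of Tbx6 and Mesp1 0.931 and of Tbx6 and Mesp2 0.892. T had 0.416 with Tbx6 and 0.00485 with Mesp2. Without pEpiLC replicate 1, over 8 libraries, T and Eomes had 0.988 and Tbx6 and Mesp2 0.895, whereas Mesp1 and Msgn1 had 0.148, Tbx6 and Msgn1 0.0596 and Tbx6 and Mesp1 0.209. T then had -0.55 with Tbx6 and -0.79 with Mesp2. The points share 3 states and 1 library that stood apart, so these are descriptions of 9 libraries. Out of 10729 genes, those most like Eomes in this measure were Wasf1 (0.993), Fst (0.992), which encodes the Activin-binding protein follistatin, and Ebp (0.992). For Mesp1 they were Gata6 (0.98), Fbrsl1 (0.975) and Inpp5a (0.969), for Tbx6 Fn1 (0.966), Fam222a (0.964) and Ptprj (0.964), and for Mesp2 Cyth2 (0.917), Dlc1 (0.91) and Ccno (0.908). Without pEpiLC replicate 1 the values were 0.99 to 0.998 for the 3 genes named for Eomes, 0.553 to 0.662 for Mesp1, 0.693 to 0.756 for Tbx6 and 0.802 to 0.837 for Mesp2. Gata6, a cardiac and endoderm factor, was at 46.5, 0.0869 and 0.138 CPM in pEpiLC replicates 1, 2 and 3, and Fn1, which encodes fibronectin, at 1748, 144 and 143 CPM. Outside pEpiLC, Gata6 was at most 0.420 CPM, whereas Fn1 reached 240 CPM, above pEpiLC replicates 2 and 3. Both genes were picked by their correlation with Mesp1 or Tbx6 over these same libraries, so their high level in pEpiLC replicate 1 follows from that choice.

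Among other genes of these pathways that passed the filter on low counts, posterior and paraxial mesoderm genes rose more often than they fell in pEpiLC. Other T-box genes did not, and anterior, cardiac and blood mesoderm genes were mixed. The filter was applied per comparison. Cyp26a1, Rspo3 and Foxc1 passed it in both pEpiLC comparisons but not in aEpiLC against EpiLC, so they were counted only through their level in pEpiLC. The list counts and medians therefore rest in part on the filter. Of 14 posterior and paraxial genes tested against aEpiLC, 6 were called higher and 1 lower, with a median log2 fold change of 1.79 (0.01 over all genes), beside 2.55% higher and 4.74% lower over all genes, and without pEpiLC replicate 1 the counts were 6 and 2 with a median of 0.98. Fgf8, a growth factor of the streak, was at 123, 109 and 110 CPM in pEpiLC and at 0.751, 0.315 and 0.138 CPM in aEpiLC, a log2 fold change of 8.14 (edgeR adjusted p = 1.58e-05), or 8.08 without pEpiLC replicate 1. Unlike T, its pEpiLC libraries lay close together. Snai1, a repressor of E-cadherin, was at 64.5, 14.9 and 13.7 CPM in pEpiLC and rose by 3.74 on the log2 scale (edgeR adjusted p = 0.0105), or by 2.62 without replicate 1. Rspo3, a Wnt co-activator, was at 18.7, 4.61 and 3.91 CPM and rose by 3.61 (edgeR adjusted p = 0.0153), or by 2.53 without it. Cyp26a1, which breaks down retinoic acid, was at 85.2, 2.96 and 2.07 CPM and rose by 6.52 (edgeR adjusted p = 0.0457), or by 2.95 without it (edgeR adjusted p = 0.00176). With voom sample weights its log2 fold change was 3.70 and the call was lost (limma adjusted p = 0.0543). Replicate 1 was the highest of the 3 for each of these genes. Lfng, a Notch modifier, fell by 2.11 (edgeR adjusted p = 0.0141), and fell by 2.81 without replicate 1. The calls of Snai1, Rspo3, Cyp26a1 and Lfng were lost when any 1 aEpiLC replicate was left out, and 2 of the 7 calls in the list were then left. The log2 fold changes were then 3.66 to 3.80 for Snai1, 3.32 to 3.82 for Rspo3, 6.07 to 7.51 for Cyp26a1 and -2.17 to -2.03 for Lfng, with edgeR adjusted p from 0.0513 to 0.160 over the 4 genes.

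Against EpiLC, 9 of 14 posterior and paraxial genes were called higher and 1 lower (median 2.16, and 0.02 over all genes), beside 7.71% and 8.13% over all genes, and 8 and 3 without pEpiLC replicate 1 (median 1.63). Rspo3 rose by 7.10, Fgf8 by 5.41 and Nkx1-2, a marker of axial progenitors, by 5.36, and Tcf15, a somite factor, fell by 1.93. Without pEpiLC replicate 1 the log2 fold changes were 6.02, 5.35, 5.28 and -2.27 in the same order, and all 4 were called. Cyp26a1 had 0 counts in all 3 EpiLC libraries and was at least 213-fold higher in pEpiLC with 3 counts per library as the floor, and at least 17.8-fold higher without replicate 1. Its call (edgeR adjusted p = 0.0325) was lost without any 1 EpiLC replicate, at edgeR adjusted p of 0.0787 to 0.0809 with the remaining EpiLC counts still at 0.

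Of 7 anterior, cardiac and blood genes tested against aEpiLC, 1 was called by the edgeR test, Myl7, a cardiac myosin light chain, and it was lower (median over the list -0.25), beside 4.74% of all genes. An unadjusted edgeR p under 0.05 was reached by 3 others, which were higher, and by 2132 of the 15198 genes tested with a higher level. Without pEpiLC replicate 1 the calls were 1 higher, Pdgfra, and 1 lower, Myl7, beside 2.51% and 4.9% of all genes. Against EpiLC, 2 of 6 were called higher and 2 lower (median -0.55), beside 7.71% and 8.13% of all genes, and 2 and 3 without replicate 1. Pdgfra, a receptor of early mesoderm, was at 51.6, 2.13 and 2.11 CPM in pEpiLC and rose by 5.61 (edgeR adjusted p = 0.0199), or by 2.48 without replicate 1 (edgeR adjusted p = 5.33e-05). The call was lost without any 1 EpiLC replicate, at log2 fold changes of 5.51 to 5.77. Mef2c, a muscle and heart factor, rose by 3.40 and Tal1, a blood factor, fell by 2.88, and without pEpiLC replicate 1 the log2 fold changes were 2.77 and -2.57. Of 3 other T-box genes tested against aEpiLC, 0 were called by edgeR, DESeq2 or voom and 1 had an unadjusted edgeR p under 0.05 (median -0.19). Against EpiLC 1 of 5 was called, Tbx21, lower in pEpiLC with a log2 fold change of -2.03 (edgeR adjusted p = 0.00708), and it was also called lower without pEpiLC replicate 1. In aEpiLC against EpiLC, Tbx4 was called higher at 1.20 and Tbx21 lower at -1.70, of 4 tested, beside 3 higher and 2 lower of 11 posterior and paraxial genes and 1 in each direction of 6 anterior, cardiac and blood genes, with 7.25% higher and 5.24% lower over all genes.

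On the log2 CPM scale with a prior count of 2, pEpiLC replicate 1 was more than 4-fold above both other replicates for 6 of 22 posterior and paraxial genes in the table, Dll1, Wnt3a, Cyp26a1, Snai1, Foxc1 and Foxc2. It was so for 5 of 15 anterior, cardiac and blood genes, Hand1, Gata4, Gata6, Pdgfra and Kdr, and for none of 12 other T-box genes. For none of the genes in these lists was it more than 4-fold below. Over the 15797 genes that passed the filter over all 9 libraries, 0.81% were above in this way and 0.538% below. Foxc2 had 6 counts in replicate 1 and 0 in the other replicates, so that against 3 counts its excess was not shown to reach 4-fold. Dll1, a Notch ligand of the presomitic mesoderm, was at 22.4, 2.09 and 2.44 CPM in pEpiLC replicates 1, 2 and 3. It was at 10.2 to 17.3 CPM in aEpiLC and at 16.8, 18.4 and 13.97 CPM in EpiLC, so that here replicates 2 and 3 were the low ones, and without replicate 1 Dll1 was called lower in pEpiLC against both states. Wnt3a, a posterior Wnt ligand, was at 21.1 CPM in replicate 1 and had 18 counts in replicates 2 and 3 together. Kdr, a receptor of vascular and cardiac progenitors, was at 4.62 CPM there, from 97 counts against 12.

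**Figure D4:**
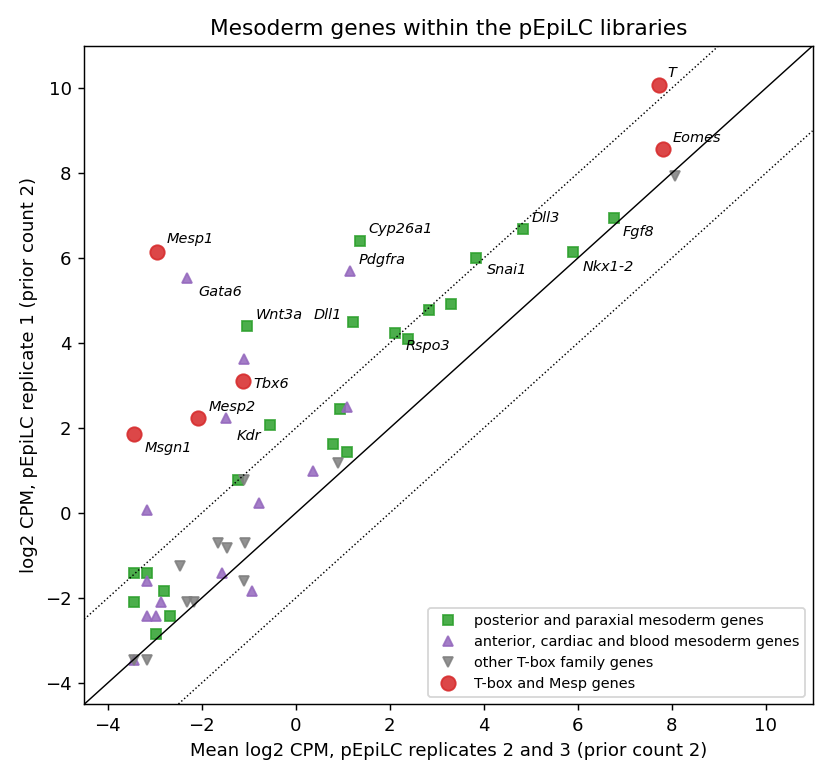
log2 CPM (prior count of 2) in pEpiLC replicate 1 against the mean of pEpiLC replicates 2 and 3, for the 6 genes (red) and 3 lists of mesoderm and T-box genes. The solid line marks equal levels and the dotted lines a 4-fold difference, and Mesp1, Msgn1, Mesp2, Tbx6 and T lie above the upper one while Eomes and Fgf8 lie below it.

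Genes next to the 6 in the genome gave values of their own. Pde10a, which lies 82875 bp beyond T, was at 19.0, 14.6 and 16.8 CPM in pEpiLC, 2.06, 1.89 and 2.53 in aEpiLC and 0.746, 0.896 and 1.14 in EpiLC. It rose against aEpiLC by 2.96 and against EpiLC by 4.19 (2.86 and 4.09 without pEpiLC replicate 1), and in aEpiLC against EpiLC by 1.21. Kcns3, 57303 bp from Msgn1, rose in pEpiLC against aEpiLC by 1.52 (edgeR adjusted p = 0.0413), a call lost without pEpiLC replicate 2 or 3 or without aEpiLC replicate 2 or 3, at log2 fold changes of 1.25 to 1.69. It rose by 1.22 without pEpiLC replicate 1. Against EpiLC it rose by 2.18 (edgeR adjusted p = 0.00150), or by 1.87 without that library, and was called under every alternative, with adjusted p of at most 0.0117. Gen1, nearer to Msgn1 on the other side at 29947 bp, had 0.04 (edgeR adjusted p = 0.827) against aEpiLC and 0.47 (edgeR adjusted p = 0.00350) against EpiLC, under the limit of 1. T2, nearer to T than Pde10a at 10909 bp, had 23, 17 and 3 counts in pEpiLC and at most 4 in any other library, and was not tested. Golga4, beside Eomes, had 0.31 against aEpiLC and 0.53 against EpiLC, both under the limit of 1, and 2610509F24Rik on its other side had -0.35 and 0.31. Ypel3 and Ppp4c, which flank Tbx6 at 968 and 305 bp, were not called in pEpiLC against aEpiLC, nor were Wdr93 and Anpep beside the Mesp pair. Exons of Gm33460, an antisense gene, overlap those of Eomes by 118 bp. Whether the counting used strand is not stated, and Gm33460 had at most 4 counts in any library.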

How the data were processed

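The authors sequenced 9 libraries as paired-end reads of 150 bp, mapped them to GRCm38 with STAR 2.7.9a and deposited expected counts per gene symbol estimated with RSEM 1.3.1. Strandedness and the annotation used are not given in the sources used here. Expected counts were rounded. Total counts per library are given with the results, and intervals cover counting error only.

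Each comparison was fitted on its 6 libraries with edgeR 4.0.16 (TMM, filterByExpr, quasi-likelihood test) in R 4.3.3, with Benjamini-Hochberg adjustment over all genes tested. Calls needed an adjusted p under 0.05 and a change of at least 1 on the log2 scale. log2 CPM used a prior count of 2. Alternatives used limma 3.58.1 (voom with sample weights), DESeq2 1.42.0, edgeR's likelihood ratio test, other filters, all 9 libraries in 1 fit, a replicate block and the omission of each library. Positions came from GENCODE vM21, in which 22803 symbols (97.2%) matched 1 gene.

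The 6 genes, the gene lists and the tests were chosen with earlier results of these data known. List genes were named as the up to 4 called in each direction per list in pEpiLC against aEpiLC or EpiLC with the largest change and a mean of at least 1 CPM. Similar genes were the 3 with the highest correlation among genes of at least 5 CPM, for members of at least 1 CPM, and adjacent or overlapping genes were also taken. The genes most similar to T are not reported here. Tbx21, Tbx4, Myl7, Dll1, Wnt3a, Kdr, Foxc1, Foxc2, Hand1 and Gata4 fall outside this rule and were chosen after their values were seen. The motifs, and the extension of their window past the start, were not part of the planned tests, and the extension followed a match seen by eye.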

Additional observations from a re-analysis of the deposited data

How the results depend on the processing

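T and Eomes were called higher in both pEpiLC comparisons under every alternative that tested them, with log2 fold changes of 7.89 to 9.52 (T) and 5.55 to 5.99 (Eomes) against aEpiLC and of 9.44 to 11.10 and 6.32 to 6.77 against EpiLC. With at least 10 counts in every library, T could not be tested against EpiLC, which left 1 of the 6 genes called. Tbx6 changed sign with voom weights (-0.082 against aEpiLC, -0.73 against EpiLC) and without pEpiLC replicate 1, with omissions giving -0.31 to 3.25 and -0.99 to 2.56. Mesp2 against EpiLC changed sign with voom weights (-2.45, called lower, limma adjusted p = 0.0159), with the replicate block (-0.33) and without pEpiLC replicate 1 (-2.38 to 1.35 over omissions). In aEpiLC against EpiLC, the 1 call among the 6 genes became 0 with DESeq2, no filter, the 10-count filter, all 9 libraries in one fit or the replicate block, 2 with the likelihood ratio test, voom or no fold limit, and 0 to 1 with a replicate left out. T was then called by the likelihood ratio test (1.53), voom (2.34) and without aEpiLC replicate 3 (1.75). Deviations of same-numbered libraries from their state means correlated at 0.193, 0.134 and 0.0821 in pEpiLC against aEpiLC and at 0.0394 or less elsewhere. Differently numbered libraries were not compared, so these values cannot show whether the replicate numbers pair the libraries. Posterior and paraxial calls against aEpiLC (7) fell to 4 with the 10-count filter and to 2 without an aEpiLC replicate (2 to 8 over all omissions), and against EpiLC (10) to 6 with that filter. Anterior, cardiac and blood calls against aEpiLC (1) were 2 with DESeq2, voom, no filter or the block, 4 with the likelihood ratio test, 3 with all 9 libraries, 0 with the 10-count filter and 0 to 3 with a replicate left out. Against EpiLC (4) they were 0 with the 10-count filter and 2 to 5 with a replicate left out, and in aEpiLC against EpiLC (2) they were 1 with that filter or all 9 libraries and 1 to 2 with a replicate left out. Other T-box calls against EpiLC (1) were 0 with the 10-count filter, 2 with no fold limit and 1 to 2 with a replicate left out, and in aEpiLC against EpiLC (2) they were 1 with that filter. The cause of these changes was not tested. The alternatives on the named list genes and the correlations without pEpiLC replicate 1 were chosen after seeing the data. Mesp1 and Msgn1 could be tested only without the filter.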
